A study of Mus musculus with 5 samples.

Results

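The apolipoprotein L genes of the mouse were followed in colon after treatment with propyzamide. The 7 members, Apol7a, Apol7b, Apol7c, Apol9a, Apol9b, Apol10a and Apol10b, were chosen by symbol with their levels in this contrast known, and are 7 of the 55471 genes in the tables. All animals were male C57BL/6 mice, 11 weeks old, whose colitis had been started 3 days earlier by TNBS, which stands for trinitrobenzene sulfonic acid and acts as a hapten that inflames the colon. Of the 5 libraries, 3 came from mice that also received propyzamide, a weed killer whose target in plants is tubulin, and 2 from mice that received vehicle. By its title, the series asks what this compound does in a preclinical model of inflammatory bowel disease. Colon without TNBS was not analysed here, and the dose and the segment of colon are not stated in the labels.

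Apolipoprotein L proteins share a helical, membrane-associating region, and most are thought to act inside cells rather than on lipoprotein particles. The human member APOL1 is the exception best known, since it circulates with high-density lipoprotein and lyses trypanosomes. In the mouse the family has expanded into a cluster of similar copies, several of which are induced by interferons. Apol9a and Apol9b are interferon-stimulated genes with reported antiviral activity, and Apol7c is known from dendritic cells.

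The members lie within 348 kb of chromosome 15, chr15:77388219-77736382 in GRCm38, in a stretch that holds most of the 13 numbered Apol genes of that chromosome. Apol7a (chr15:77388219-77399110) and Apol9a (chr15:77403789-77411135) are neighbours on the minus strand, and Apol7b (chr15:77422209-77447492) follows them on the same strand. Apol10a (chr15:77477047-77491069) is on the plus strand. Apol7c (chr15:77524852-77533316) and Apol10b (chr15:77583819-77596125) are on the minus strand, and Apol9b (chr15:77729039-77736382) is on the plus strand. Each is annotated as a protein-coding gene.

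Promoter sequences are shown for Apol10a and Apol7a, the members with the highest levels under propyzamide, and for Apol9a and Apol10b, their closest relatives of low level in name or position. Each runs from 250 bases before to 50 after the start site, 5′ to 3′ on the gene's strand, from RefSeq (GRCm38.p6). Capitals mark matches on either strand to GAAANNGAA, a short form of the interferon-response element, or to TTCNNNGAA, the palindrome that STAT dimers bind. The windows are chr15:77476797-77477096 (plus strand) for Apol10a, chr15:77399061-77399360 (minus strand) for Apol7a, chr15:77411031-77411330 (minus strand) for Apol9a and chr15:77596076-77596375 (minus strand) for Apol10b.
Apol10a: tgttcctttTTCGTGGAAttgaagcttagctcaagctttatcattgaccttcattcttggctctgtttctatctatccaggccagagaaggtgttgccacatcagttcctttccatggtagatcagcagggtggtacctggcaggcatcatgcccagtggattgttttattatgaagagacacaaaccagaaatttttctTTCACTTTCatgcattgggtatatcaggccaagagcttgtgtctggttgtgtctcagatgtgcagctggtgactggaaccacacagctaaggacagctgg
Apol7a: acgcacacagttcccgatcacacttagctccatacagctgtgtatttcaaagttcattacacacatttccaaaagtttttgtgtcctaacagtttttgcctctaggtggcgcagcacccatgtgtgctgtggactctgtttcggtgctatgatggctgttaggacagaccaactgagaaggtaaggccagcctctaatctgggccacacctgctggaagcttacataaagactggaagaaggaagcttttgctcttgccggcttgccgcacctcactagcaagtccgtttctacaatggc
Apol9a: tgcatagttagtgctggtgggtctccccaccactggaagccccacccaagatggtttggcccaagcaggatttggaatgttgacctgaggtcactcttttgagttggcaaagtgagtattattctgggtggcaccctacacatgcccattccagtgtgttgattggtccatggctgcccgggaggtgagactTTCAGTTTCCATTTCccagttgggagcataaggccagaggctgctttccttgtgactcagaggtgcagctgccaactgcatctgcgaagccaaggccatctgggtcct
Apol10b: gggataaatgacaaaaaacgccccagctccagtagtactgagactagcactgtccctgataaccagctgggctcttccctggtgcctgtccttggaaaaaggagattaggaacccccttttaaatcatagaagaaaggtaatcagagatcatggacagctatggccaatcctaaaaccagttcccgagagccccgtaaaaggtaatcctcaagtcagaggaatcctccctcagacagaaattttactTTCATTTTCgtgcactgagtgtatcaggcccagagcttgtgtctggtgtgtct

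Among all 32851 promoters of this length, 8.56% held GAAANNGAA and 8.30% held TTCNNNGAA. Apol10a held 1 match to each motif, with the interferon-response letters at position -50 and the palindrome at position -241 from the start site. Apol9a held a pair of overlapping interferon-response matches at -58 and -52, and its copy Apol9b held the same letters at -36 and -30. Apol7c had matches at -54 and -48, and Apol10b had 1 match at -3. Neither motif was found in the windows of Apol7a and Apol7b. These matches describe letters and not bound sites, and position is counted with the start site as the origin.

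The promoter windows of Apol9a and Apol9b matched at all 278 of their aligned bases and differed in where the window begins. The promoter of Apol10a was 89.6% identical over 299 aligned bases to that of Apol11b, a family gene with few counts here, and 70.3% identical over 232 aligned bases to that of Apol10b. That of Apol7a was at most 59.4% identical over aligned bases to that of any other family gene compared. Where few bases align, the gaps raise this identity.

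The copies also resemble each other in their transcripts, which decides how far the counts of each can be told apart. The coding sequences of Apol9a and Apol9b, 930 bases each, were 98.5% identical, and those of Apol7b and the non-member Apol7e were 98.9% identical. Of the 50-base stretches in the main transcripts, only 24.4% were unique to Apol7b and 42.5% to Apol9a. Apol10a was better separated, with 83.1% of its stretches unique and at most 8.58% shared with any 1 family gene, the pseudogene Apol10c-ps. Apol7a had 84.3% and Apol10b 93.9% unique. Counts of Apol7b, Apol9a and Apol9b are therefore uncertain as single genes, and the sum over the family is given beside them.

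The total estimated count was 2706885, 2441897 and 1882235 in the propyzamide libraries, against 1573700 and 2258237 in the vehicle libraries. Loci that resemble ribosomal RNA and mitochondrial genes took 50.9% to 58.2% of it under propyzamide and 36.3% and 63.3% under vehicle. Olfactory and vomeronasal receptor genes were taken as a gauge of background, on the assumption that colon uses few of them. Of 1740 such genes, 11.6%, 44.6% and 17.3% had a count in the propyzamide libraries, against 71.3% and 57.1% in the vehicle libraries. The vehicle libraries thus held counts on more of these genes, and the count expected from their level is given below beside low members. The libraries of each group also share a second index sequence that the other group lacks, so anything tied to that index and the treatment cannot be told apart. In pieces of tissue, fewer cells of a type and less RNA per cell cannot be told apart.

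Family totals were higher under propyzamide. The summed level of the 7 members, in CPM (estimated counts relative to library size, scaled by the TMM method), was 80.2, 108 and 175 in the propyzamide libraries and 29.2 and 18.2 in the vehicle libraries. The groups did not overlap, and the lowest propyzamide library stood above the higher vehicle library. Means were 121 ± 48.8 CPM under propyzamide (SD, n = 3) and 23.7 ± 7.80 CPM under vehicle (SD, n = 2), a ratio of 5.11, or 2.35 on the log2 scale. In estimated counts this was 733 against 103, a ratio per scaled library size of 4.55 with a 95% interval of 3.70 to 5.65, which covers counting error only. Since the members were chosen on this contrast, these values are a description, with no test.

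**Figure D1:**
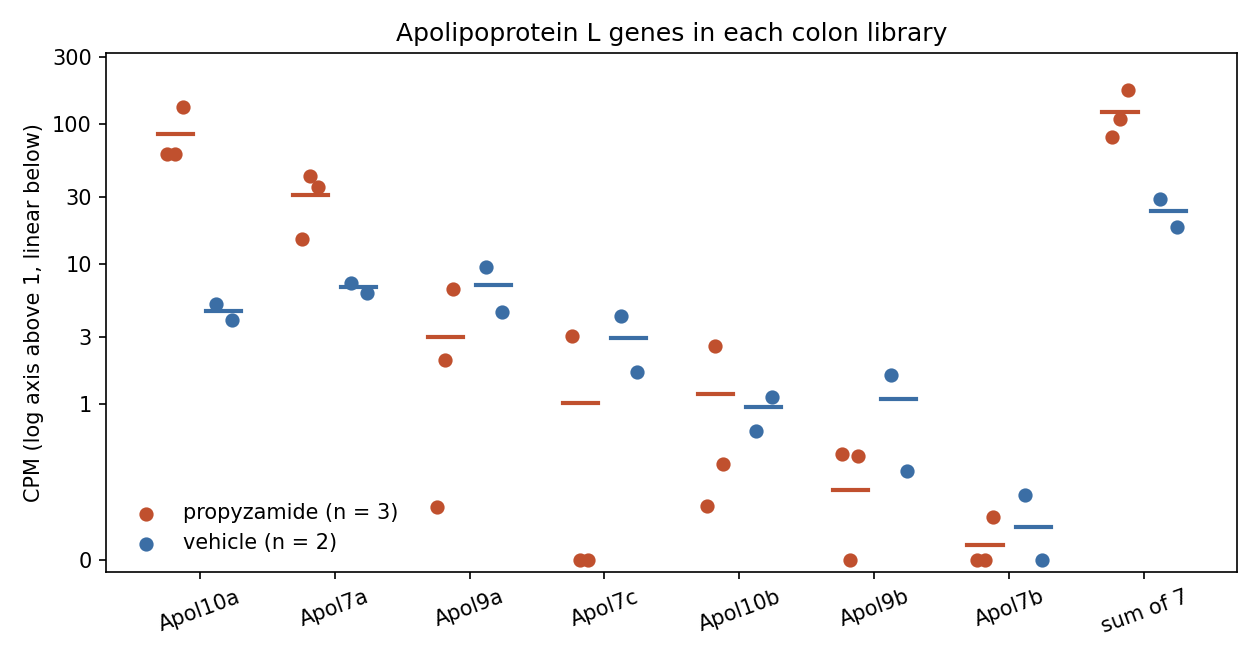
Level of each apolipoprotein L gene and of their sum in each colon library, in CPM on an axis that is logarithmic above 1 and linear below. Points are libraries (3 propyzamide, 2 vehicle) and bars are group means. Apol10a and Apol7a lie higher in every propyzamide library than in either vehicle library, while the groups overlap for the other 5 members.

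The difference was smaller in the authors' TPM, a unit that divides by transcript length and then by the library's sum. The summed TPM was 33.19, 34.92 and 54.60 under propyzamide and 28.21 and 6.42 under vehicle. The groups again did not overlap, but vehicle replicate 1 came close to the propyzamide libraries. The ratio of means was 2.36 in TPM, with 40.9 ± 11.9 under propyzamide (SD, n = 3) and 17.3 ± 15.4 under vehicle (SD, n = 2). Over all genes tested the median log2 fold change was -0.39 on log2(TPM + 1) and -0.018 with TMM scaling, so a typical gene was also lower under propyzamide by TPM. That median is not a ratio of mean TPM, and its part in the smaller family ratio was not tested.

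Apol10a carried most of the difference. Its estimated count was 178.97, 118.95 and 215.99 in the propyzamide libraries, against 12.56 and 7 in the vehicle libraries. In CPM this was 60.8, 61.1 and 131 under propyzamide and 5.19 and 3.97 under vehicle. The groups were far apart, and propyzamide replicate 3 was the highest library. Means were 84.5 ± 40.7 CPM under propyzamide (SD, n = 3) and 4.58 ± 0.865 CPM under vehicle (SD, n = 2), a ratio of 18.4. The ratio of pooled counts was 16.4, with a 95% counting interval of 10.5 to 27.1.

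Apol10a was also apart in TPM, at 22.50, 16.88 and 35.17 under propyzamide and 2.97 and 1.05 under vehicle. Its mean TPM under propyzamide was higher than that of 84.2% of the genes tested, so the gene was of fairly high level there. The count expected from the level of receptor genes was at most 1.40 in any propyzamide library and at most 2.73 in either vehicle library. All of its counts lie on a single annotated transcript of 3033 bases with a coding part of 954 bases. Leaving out any 1 library gave a log2 ratio of mean CPM between 3.73 and 4.39, against 4.20 with all 5.

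Apol7a was the second member to differ. Its estimated count was 44.04, 81.99 and 58.00 in the propyzamide libraries and 17.80 and 11.00 in the vehicle libraries. In CPM it was 15, 42.1 and 35.3 under propyzamide and 7.36 and 6.24 under vehicle. These did not overlap, and propyzamide replicate 1 was the lowest of its group. Means were 30.8 ± 14.1 CPM under propyzamide (SD, n = 3) and 6.80 ± 0.792 CPM under vehicle (SD, n = 2), a ratio of 4.53. The ratio of pooled counts was 4.06, with a 95% counting interval of 2.73 to 6.23.

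On the TPM scale Apol7a did overlap between the groups, at 8.19, 16.09 and 14.66 under propyzamide and 9.64 and 2.47 under vehicle. Vehicle replicate 1 exceeded propyzamide replicate 1. Of the 9.64 TPM in vehicle replicate 1, 4.18 came from a single count on Apol7a-202, an annotated transcript of only 344 bases. The log2 ratio of mean levels was 1.10 in TPM and 2.18 in CPM.

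The counts of Apol7a lay mainly on a pair of transcripts with the same coding length of 1254 bases. Apol7a-203, with 5 exons, held 83.0%, 53.9% and 77.3% of the gene's counts under propyzamide and 94.4% and 85.5% under vehicle. Apol7a-204, with 6 exons, held 13.2%, 44.5% and 21.1% under propyzamide and none under vehicle. Pooled, it held 54.5 of 184 counts, or 29.6%, under propyzamide and 0 of 28.8 counts under vehicle, which allows a share of up to 10.4% by counting error alone. The propyzamide libraries varied widely in this share, which rests on how RSEM divided reads between overlapping models, and the difference was not tested over libraries.

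Apol9a had lower means under propyzamide, but its counts lay on different transcripts in the libraries. Its estimated count was 1, 4 and 10.91 in the propyzamide libraries and 23.10 and 8 in the vehicle libraries. The groups overlapped, since propyzamide replicate 3 exceeded vehicle replicate 2 in CPM, with 6.64 against 4.54. Means were 3.01 ± 3.26 CPM under propyzamide (SD, n = 3) and 7.05 ± 3.55 CPM under vehicle (SD, n = 2), a log2 ratio of -1.23.

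Much of the Apol9a count in vehicle came from Apol9a-203, a single-exon model of 4246 bases annotated as a retained intron. This model held 1, 1 and 0.00 counts under propyzamide and 14.00 and 8 under vehicle. At the level of receptor genes, 0.252, 1.96 and 0.587 counts would be expected on it under propyzamide and 3.82 and 2.41 under vehicle. The protein-coding transcripts of Apol9a held 0.00, 3.00 and 10.91 counts under propyzamide and 9.10 and 0.00 under vehicle. On those alone, a choice made after seeing the data, the log2 ratio of means was 0.54, the opposite direction. No direction can be given for Apol9a, and the part of background and of unspliced RNA in its counts was not tested.

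**Figure D2:**
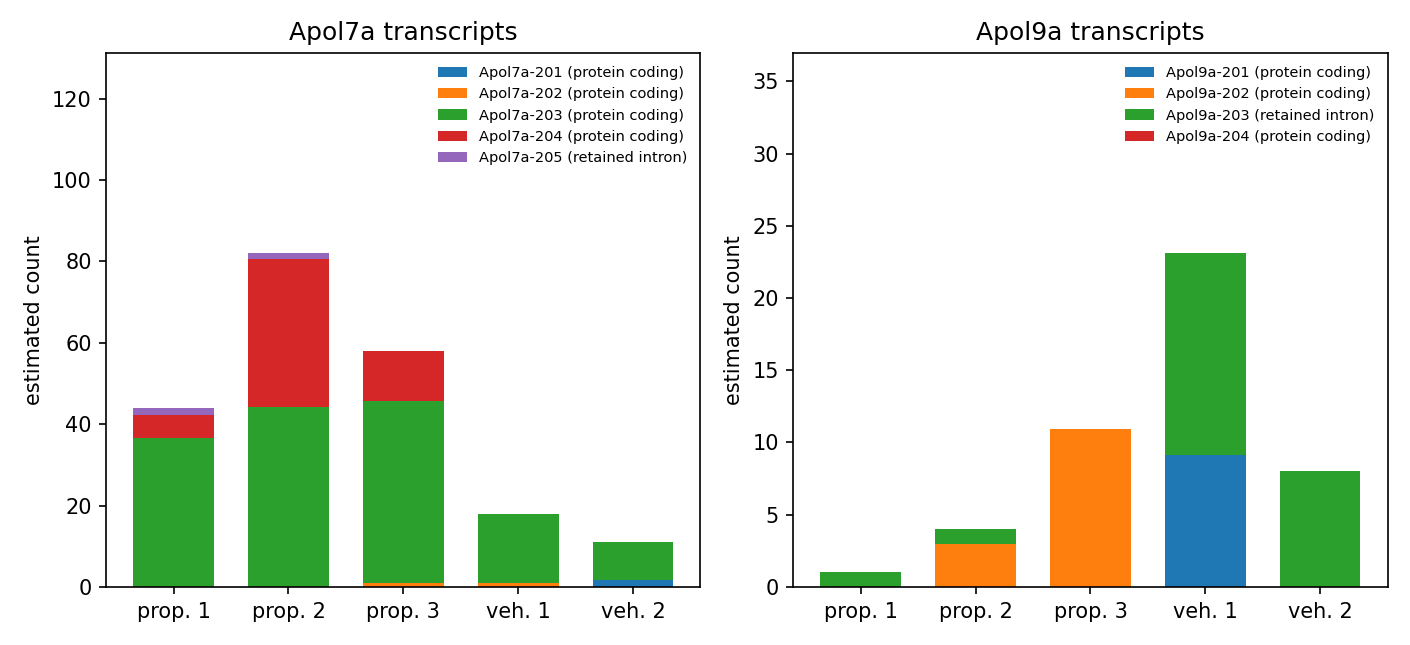
Estimated counts of Apol7a (left) and Apol9a (right) in each library, stacked by annotated transcript, with propyzamide libraries left of vehicle libraries. The retained-intron model Apol9a-203 holds 14.00 and 8 counts in the vehicle libraries and at most 1 in any propyzamide library.

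The other 4 members were near the limit of detection. A floor of 3 counts over a group corresponds to 0.459 CPM in propyzamide and 0.718 CPM in vehicle, and 1 count equals 0.340 to 0.609 CPM across the libraries. Apol7c had 8.96, 0.00 and 0.00 estimated counts under propyzamide and 10.20 and 3.00 under vehicle. All of its counts under propyzamide were in replicate 1, and the ratio of pooled counts was 0.443 with a 95% counting interval of 0.167 to 1.12.

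Apol10b had 1.01, 5.05 and 1.01 counts under propyzamide and 2.00 and 2.00 under vehicle, a ratio of 1.12 with an interval of 0.285 to 5.22. Although it shares its name with Apol10a, its coding sequence is only 75.4% identical to that of Apol10a over aligned bases, and Apol11a, at 80.9%, is closer. The copy of Apol9a, Apol9b, had 2.00, 0.00 and 1.09 counts under propyzamide and 3.90 and 1 under vehicle, a ratio of 0.384 with an interval of 0.0596 to 1.97. Apol7b had no whole count under propyzamide, with 0.00, 0.00 and 0.45, and 1 and 0.00 under vehicle, both under the floor. A difference between groups was not detectable at this depth for any of the 4.

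The summed CPM of the 5 members other than Apol10a and Apol7a was 4.41, 4.65 and 8.19 under propyzamide and 16.6 and 7.94 under vehicle. These overlapped through propyzamide replicate 3 and vehicle replicate 2. In counts the sum was 35 under propyzamide and 54 under vehicle, of which 9.63 and 21.4 would be expected at the level of receptor genes. A direction shared by all members could therefore not be shown. Of the 7, 2 were higher with no overlap in CPM, and 5 overlapped, with no direction that can be given for any of them.

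As background to those counts, the groups did not overlap and were higher under propyzamide in 16.7% of the 12024 genes tested, and lower in 20.8%. In the edgeR quasi-likelihood test with Benjamini-Hochberg adjustment over all genes, 229 genes (1.90%) passed an adjusted p of 0.05, with 83 (0.690%) higher and 146 (1.21%) lower under propyzamide. An unadjusted p under 0.05 was reached by 2184 genes, or 18.2%, the share against which such counts in the lists below are to be read. Only Apol10a, Apol7a and Apol9a passed the filter on low counts, and no p is given for members because they were chosen on this contrast. With groups of 3 and 2 libraries, 36 to 499 genes passed when 1 library was left out.

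The make-up of the family differed between the groups. Apol10a and Apol7a together made up 94.5%, 95.7% and 95.3% of the summed CPM in the propyzamide libraries, against 43.0% and 56.3% in the vehicle libraries. By TPM, which allows levels of different genes to be compared, Apol10a made up 67.8%, 48.3% and 64.4% under propyzamide and 10.5% and 16.4% under vehicle. The ratio of Apol10a to Apol7a in TPM was 2.75, 1.05 and 2.40 under propyzamide, and 0.308 and 0.425 under vehicle. Apol10a was the higher of the pair in each propyzamide library and the lower in each vehicle library.

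**Figure D3:**
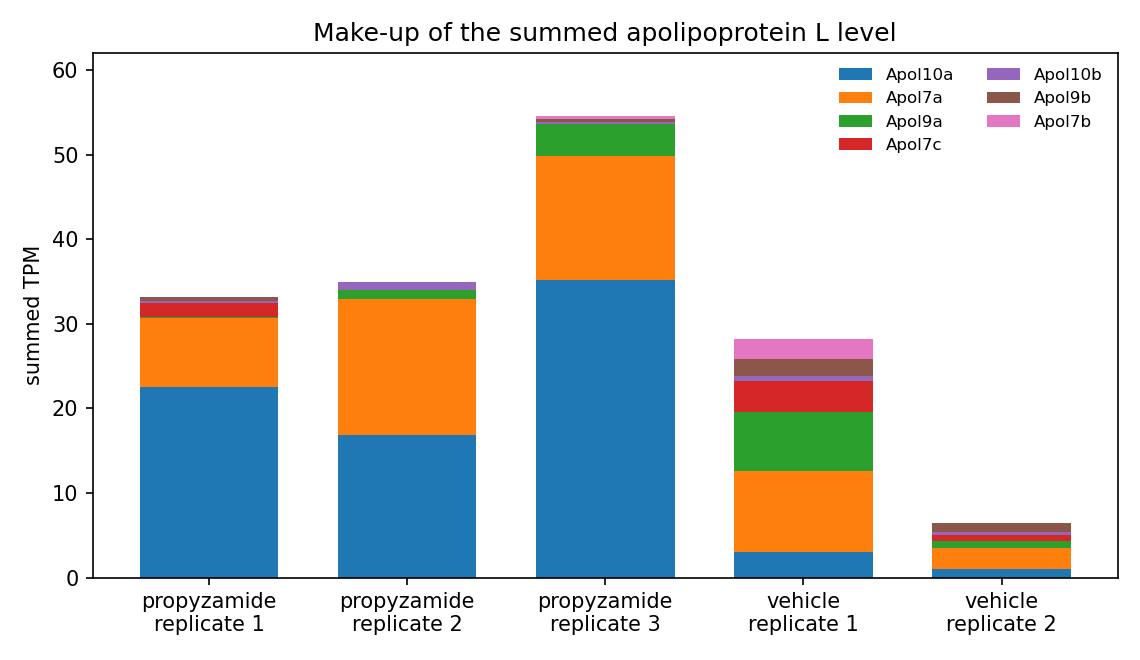
Summed TPM of the 7 apolipoprotein L genes in each library, stacked by gene, with the propyzamide libraries left of the vehicle libraries. Apol10a makes up 48.3% to 67.8% of the sum under propyzamide, against 10.5% and 16.4% under vehicle.

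Ordered by mean TPM under propyzamide, Apol10a (24.8) led, followed by Apol7a (13.0), Apol9a (1.61), Apol7c (0.570), Apol10b (0.447), Apol9b (0.300) and Apol7b (0.147). The values of Apol10a, Apol7a and Apol9a did not overlap in the propyzamide libraries, although the lowest of Apol10a (16.88 TPM) was close to the highest of Apol7a (16.09 TPM). From Apol9a downward, each neighbour in the order overlapped the next. Under vehicle, the mean TPM was 6.06 for Apol7a, 3.88 for Apol9a, 2.18 for Apol7c, 2.01 for Apol10a, 1.48 for Apol9b, 1.21 for Apol7b and 0.515 for Apol10b. There every neighbour in the order overlapped the next.

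**Figure D4:**
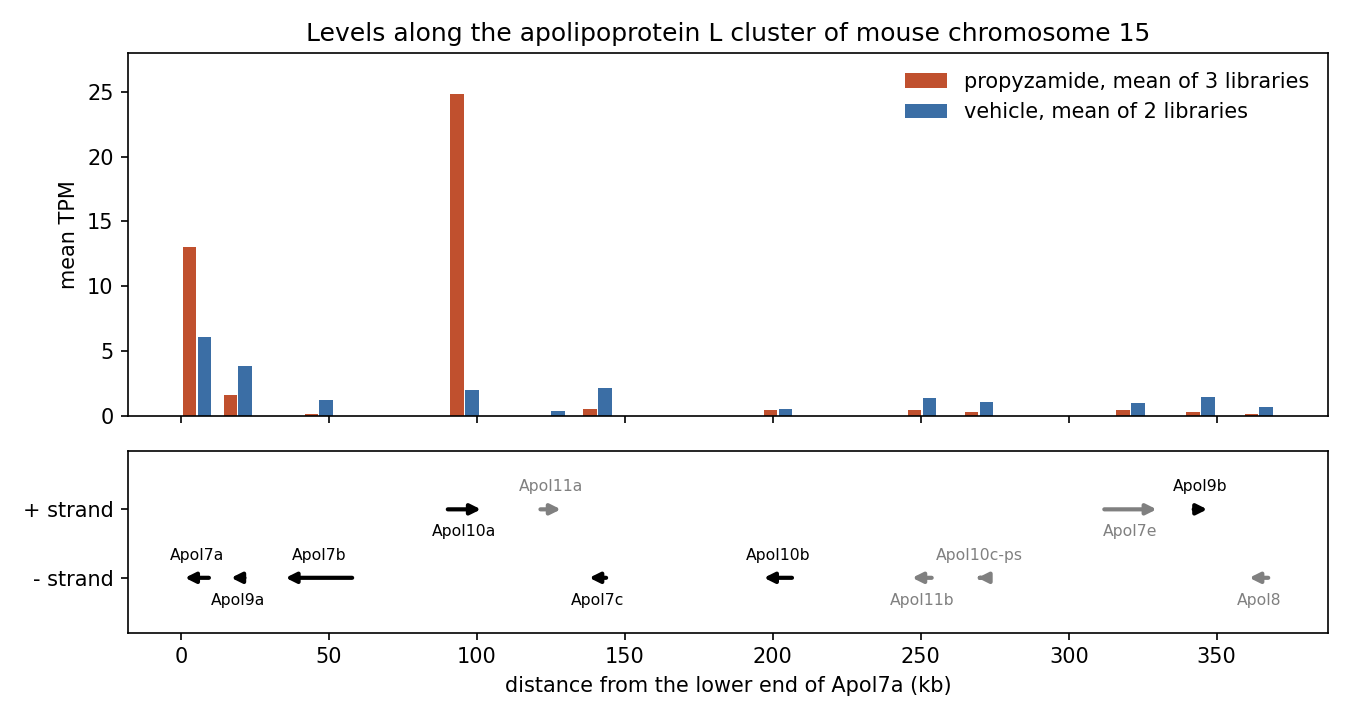
Mean TPM of each numbered Apol gene along the cluster on mouse chromosome 15 (top; propyzamide bars left, vehicle bars right) and the position and strand of the genes (bottom; members black, other Apol genes grey). The horizontal axis is the distance in kb from the lower end of Apol7a. Apol10a and Apol7a are the tallest under propyzamide, and the genes between and beyond them stay low in both groups.

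Of the 7 other genes of the family or name, only Apol6 and Apold1 had enough counts for the test, and neither passed. Apol6, which lies outside the cluster on the same chromosome, had 9.86, 9.75 and 13.4 CPM under propyzamide and 3.31 and 4.54 CPM under vehicle. Its groups did not overlap in CPM but did in TPM, and its log2 fold change was 1.48 ± 0.62 (SE; edgeR adjusted p = 0.228). Apold1, an endothelial early-response gene of related sequence on chromosome 6, had a log2 fold change of -0.19 ± 1.10 (SE; edgeR adjusted p = 0.954). In edgeR 1 of these 2 genes had an unadjusted p under 0.05, and neither DESeq2 nor limma on log2(TPM + 1) called either.

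The untested genes of the family had few counts. Apol7e, the near copy of Apol7b, had 7 counts under propyzamide and 8 under vehicle in all. Apol8 had 3 and 7, Apol11b had 4 and 8, and Apol7d, which is annotated as an antisense gene on chromosome 1, had 1 and 2. Apol11a had none under propyzamide and 2 under vehicle. The sum over all numbered Apol genes gave a log2 ratio of mean CPM of 1.95.

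The protein-coding genes within 500 kb of either end of the members' span, Apol genes left out, were examined as neighbours, 17 in all. None of the 10 tested passed in edgeR, 1 had an unadjusted p under 0.05, and their median log2 fold change was -0.06, against -0.018 over all genes tested. The largest difference was in Foxred2, with 0, 1.03 and 0 CPM under propyzamide and 4.14 and 7.94 CPM under vehicle. Its log2 fold change was -4.01 ± 1.24 (SE; edgeR adjusted p = 0.111). DESeq2 called none of the neighbours, while limma on log2(TPM + 1) called Foxred2. Eif3d, a translation initiation subunit, had a log2 fold change of 0.33 (adjusted p = 0.722 in edgeR), the splicing factor Rbfox2 had 0.86 (adjusted p = 0.376) and Zfp7 had -0.67 (adjusted p = 0.445).

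Interferons act through paired receptors and JAK kinases on STAT proteins, which then switch on response genes. Since several apolipoprotein L genes respond to interferon, 32 genes of the type I and type III response were listed, of which 23 were tested. None passed in edgeR, 6 had an unadjusted p under 0.05 (18.2% of all genes did), and the log2 fold change was positive for 3 and negative for 20. The median was -0.68, against -0.018 over all genes. DESeq2 called none, and limma on log2(TPM + 1) called 2, Dhx58 and Ddx58, both lower.

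The 4 response genes with the smallest p pointed in both directions. Dhx58, a sensor of viral RNA, had 1.02, 1.03 and 0.609 CPM under propyzamide and 9.93 and 5.67 CPM under vehicle, with a log2 fold change of -3.04 ± 0.87 (SE; edgeR adjusted p = 0.0848). Ddx58, which encodes the RNA sensor RIG-I, had a log2 fold change of -1.87 ± 0.65 (SE; edgeR adjusted p = 0.149), and Zbp1, a sensor of Z-form nucleic acid, one of -1.94 ± 0.74 (SE; edgeR adjusted p = 0.187). These are low-count genes, and the vehicle libraries held more counts of receptor genes as well. Ifi27l2a ran the other way, with 6.46, 42.4 and 37.1 CPM under propyzamide and 4.55 and 7.94 CPM under vehicle. Its groups overlapped through propyzamide replicate 1, and its log2 fold change was 2.19 ± 0.73 (SE; edgeR adjusted p = 0.136). Without propyzamide replicate 1 it passed, with an adjusted p of 0.0127 in edgeR.

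Of 22 interferon-gamma response genes, 12 were tested and none passed in edgeR; 1 had an unadjusted p under 0.05, and neither DESeq2 nor limma called any. Their median log2 fold change was -0.40, with 3 positive and 9 negative. The immunoproteasome subunit Psmb9 had a log2 fold change of -1.45 (edgeR adjusted p = 0.242), the feedback inhibitor Socs1 one of -1.79 (edgeR adjusted p = 0.278), the peptide transporter Tap1 one of -1.04 (edgeR adjusted p = 0.435) and the guanylate-binding protein Gbp2 one of 1.17 (edgeR adjusted p = 0.276).

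Among 17 interferon ligands, receptors and kinases, Ifng, Ifnb1, Ifna4 and Ifnl3 had no count in any library. Of the 12 tested, none passed in edgeR, 3 had an unadjusted p under 0.05, against 18.2% of all genes, and neither DESeq2 nor limma called any. The median log2 fold change was -0.38. The receptor subunit Il10rb had a log2 fold change of -0.83 (edgeR adjusted p = 0.235), Irf9 one of -1.06 (edgeR adjusted p = 0.248), Stat2 one of -1.09 (edgeR adjusted p = 0.315) and the kinase Jak2 one of 0.96 (edgeR adjusted p = 0.274). Whether Apol10a and Apol7a moved apart from the interferon response was not tested, since they were chosen on this contrast.

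Despite the shared name, apolipoproteins of lipoprotein particles are unrelated in sequence to the apolipoprotein L family. Of 14 genes, 13 of them apolipoproteins and 1 the receptor gene Apobr, 5 were tested, and none passed in edgeR; 2 had an unadjusted p under 0.05, and the median log2 fold change was 1.21. Apoa1, the main protein of high-density lipoprotein and a product of enterocytes, had 2.72, 59.0 and 13.4 CPM under propyzamide and no count in either vehicle library. Its adjusted p was 0.0504 in edgeR, just outside the threshold, and DESeq2 (adjusted p = 0.0219) and limma on log2(TPM + 1) (adjusted p = 0.00220) called it. Apod had a log2 fold change of 1.98 (adjusted p = 0.199), Apoc2 one of 1.21 (adjusted p = 0.456) and Apob, the scaffold of chylomicrons, one of 1.01 (adjusted p = 0.558), all in edgeR.

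**Figure D5:**
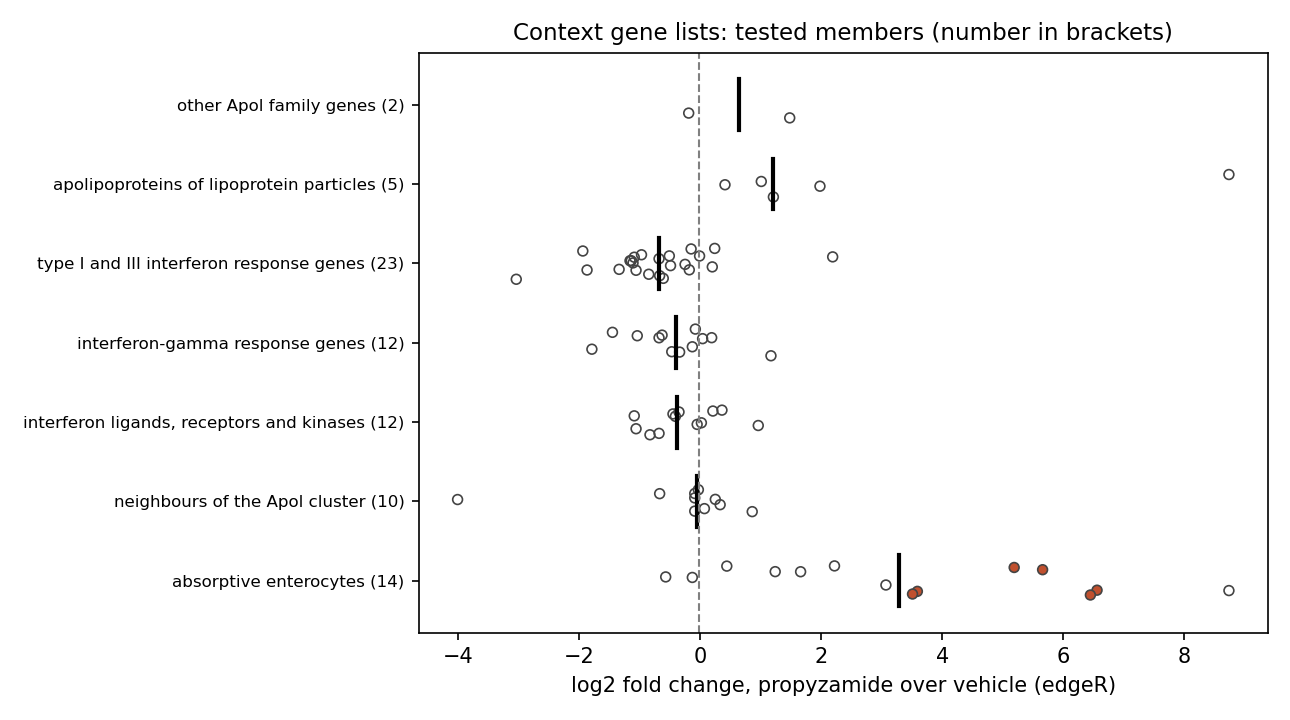
log2 fold change, propyzamide over vehicle, of the tested members of each list of context genes (edgeR; 5 libraries). Each circle is a gene, filled where its adjusted p is under 0.05, and vertical bars are list medians. The interferon lists have medians of -0.68, -0.40 and -0.38 and no filled circle, and absorptive enterocyte markers have a median of 3.29 with 6 filled.

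Some cell type markers also differed between the groups. Markers of absorptive enterocytes summed to 8243, 11681 and 7834 CPM under propyzamide and 2246 and 3488 CPM under vehicle. Of 14 tested, 6 rose in edgeR, and none of the 15 listed was at 0 in every library. The sodium-proton exchanger Slc9a3 (log2 fold change 5.19 ± 0.53 SE, adjusted p = 0.00204), the fatty acid binder Fabp2 (6.56 ± 0.74, adjusted p = 0.00231) and the guanylate cyclase ligand Guca2a (3.59 ± 0.54, adjusted p = 0.00759) were among them. The others were Alpi, Tmigd1 and Slc51b. Among the markers that did not pass, Car4, Aqp8 and Slc26a3 overlapped between the groups. The log2 fold change was -0.57 for the carbonic anhydrase Car4 (adjusted p = 0.689 in edgeR), -0.13 for the water channel Aqp8 (adjusted p = 0.929) and 0.44 for the chloride exchanger Slc26a3 (adjusted p = 0.750). Krt20, Ceacam1 and Cyp2c55 also did not pass, but each was higher in every propyzamide library than in either vehicle library. Their log2 fold changes in edgeR were 1.66 (adjusted p = 0.0561), 1.24 (adjusted p = 0.176) and 2.22 (adjusted p = 0.0504). Of the 14 tested markers, 12 had a positive and 2 a negative log2 fold change. Leaving out either vehicle library left 4 of the markers past the threshold, and DESeq2 called 11.

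Markers of epithelium as a whole did not part the groups, at 6181, 4703 and 4546 CPM under propyzamide and 4993 and 4272 CPM under vehicle. Of the 10 tested only Cdx2, a regulator of intestinal identity, rose (adjusted p = 0.0274 in edgeR), which was lost without either vehicle library or without propyzamide replicate 2. Smooth muscle markers summed to 5660.0, 8313 and 9374 CPM under propyzamide and 504 and 3298 CPM under vehicle; none of 10 passed in edgeR, 9 had an unadjusted p under 0.05 and DESeq2 called 6. Limma called 4, and edgeR called 9 without vehicle replicate 2, 2 without propyzamide replicate 1 and 8 with the replicate block. In the replicate block, propyzamide replicate 3 does not enter the group difference, since no vehicle library has its number. The lower smooth muscle level was in vehicle replicate 1.

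Dendritic cell markers, relevant to Apol7c, summed to 22.4, 12.8 and 13.4 CPM under propyzamide and 54.5 and 53.9 CPM under vehicle. Irf8 alone gave 19.7, 9.24 and 11.0 CPM of this under propyzamide and 26.1 and 26.7 CPM under vehicle. None of the 3 tested passed in edgeR, 2 had an unadjusted p under 0.05, DESeq2 called none and limma called 2. Of the 12 listed, 8 had no count in any propyzamide library: Itgax, Xcr1, Clec9a, Batf3, Ccr7, Ccl22, Cd209a and Siglech. Their counts were also low under vehicle, from 3 for Batf3 to 17 for Siglech over both libraries. The share of all genes with no count in any propyzamide library is not given here, so this number has no background beside it. The vehicle libraries held more counts of receptor genes as well, and the part of background in these markers was not tested. Fscn1, also listed, had a mean of 1.49 CPM under propyzamide and 1.52 CPM under vehicle. No listed marker was at 0 in all 5 libraries. Macrophage markers summed to 47.8, 175 and 306 CPM under propyzamide and 100.1 and 87.4 CPM under vehicle. Lyz2 alone gave 25.5, 107 and 181 CPM of this under propyzamide and 61.6 and 46.8 CPM under vehicle. None of the 6 macrophage markers tested passed in edgeR, 0 had an unadjusted p under 0.05, and neither DESeq2 nor limma called any.

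Neutrophil markers summed to 96.5, 32.3 and 23.1 CPM under propyzamide and 104 and 329.7 CPM under vehicle. Nearly all of this was Ly6g, at 94.5, 30.3 and 21.9 CPM under propyzamide and 102 and 317 CPM under vehicle. The other listed markers had few counts in either group, at most 10 (S100a9 under vehicle), so the sum describes Ly6g rather than the list. Only Ly6g was tested, with an adjusted p of 0.0835 in edgeR, an unadjusted p under 0.05, and a call by DESeq2 and limma. Endothelial markers summed to 28.2, 14.9 and 47.5 CPM under propyzamide and 41.8 and 39.1 CPM under vehicle; none of 3 passed in edgeR, 1 had an unadjusted p under 0.05, and neither other tool called any. Adipocyte markers summed to 42.8, 65.7 and 278 CPM under propyzamide and 17.8 and 19.3 CPM under vehicle, and 2 of 3 tested, Cfd and Cidec, rose in edgeR. Cfd alone gave 192 of the 278 CPM in propyzamide replicate 3. The untested markers were split. Plin1 (3 counts under propyzamide, 11 under vehicle) and Lep (0 and 9) were lower under propyzamide, while Adipoq (59 and 4) and Retn (19 and 3) were higher. DESeq2 called only Cidec and limma only Cfd, background subtraction left only Cidec, and without propyzamide replicate 2 only Cfd passed. Neither passed without either vehicle library or without propyzamide replicate 3. The part of these cell types in the levels of Apol10a and Apol7a was not tested.

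The genes whose pattern over the 5 libraries was most like that of the family sum were Tnc, Kcne4, Me1, H2-T3 and Fam118a. Likeness was the root mean square difference of centred log2(CPM + 1), 0.14 for Tnc and 0.28 for Fam118a, among 11637 genes, and is a description over 5 libraries. Tnc, the matrix protein tenascin C, had 63.6, 85.7 and 146 CPM under propyzamide and 21.5 and 18.2 CPM under vehicle. Kcne4, a potassium channel subunit, had 5.44, 8.21 and 13.4 CPM under propyzamide and 2.48 and 1.13 CPM under vehicle. In each of the 5, propyzamide replicate 3 was the highest library and the groups did not overlap, which follows from choosing them for likeness to the family sum.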

How the data were processed

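RNA was extracted with Trizol from frozen colon, and SMART-Seq2 was used for the libraries, per the labels' protocols. The authors deposited RSEM tables with an estimated count, TPM, FPKM and percent of its gene for each of 142647 transcripts, per the file headers. FPKM, percent and the length columns were not used for results. RSEM, kallisto and GRCm38 are named in the submitters' processing notes, with no versions; their annotation and use of strand were not given in the sources used here. Transcript values were summed to 55471 genes, of which 99.6% were found in the GENCODE M21 annotation, the source of names, coordinates and coding parts.

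Summed counts were rounded and tested with edgeR 4.0.16 in R 4.3.3 (filterByExpr, TMM, quasi-likelihood test, Benjamini-Hochberg adjustment, threshold 0.05), with group as the only term. DESeq2 1.42.0 and limma 3.58.1 on the log2 of the deposited TPM, with 1 or 0.1 added, were alternatives, beside other scalings and filters, removal of rRNA-like and mitochondrial genes, subtraction of background, a replicate block and each library left out. In the replicate block, propyzamide replicate 3 has no vehicle library of its number and does not enter the group difference. One alternative, protein-coding transcripts only, was added after seeing the data.

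Ratios of group means carry no pseudocount. Pooled counts were compared with exact 95% intervals, which cover counting error only and treat amplified copies as independent. Background was the count per kilobase of exon over 1740 receptor genes in each library. The 7 members, the gene lists and the rule for naming genes were chosen with earlier results of these data known. The rule named every Apol gene, all called genes of each list or otherwise up to 4 of smallest p, and the 5 genes of mean log2 CPM of at least 2 most like the family sum. It was not followed in full for markers of dendritic cells, macrophages, smooth muscle and endothelium, which are given mainly as sums. Untested markers of dendritic cells, neutrophils and adipocytes, as well as Car4, Aqp8, Slc26a3, Krt20, Ceacam1 and Cyp2c55, were named after their values were seen. The labels do not say that each library is a separate animal, so p-values speak only of the spread among these libraries. No pair of libraries was a duplicate (chi-square per degree of freedom 16.0 to 48.1).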

Additional observations from a re-analysis of the deposited data

How the results depend on the processing

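The count of 229 genes past the threshold was 362 without rRNA-like and mitochondrial genes, 106 with background subtracted, 1323 with no filter on low counts, 148 with a filter of 10 CPM in 2 libraries, 565 with DESeq2, 490 with limma on log2(TPM + 1) and 657 at an adjusted p of 0.1. Limma on log2(TPM + 1) called 66 genes higher and 424 lower, against 83 and 146 in edgeR, and limma on log2(TPM + 0.1) called 40 higher and 237 lower. Upper-quartile scaling called 79 higher and 235 lower, removal of rRNA-like and mitochondrial genes 104 and 258, background subtraction 52 and 54, and DESeq2 260 and 305. With 1 library left out the count lay between 36 (without vehicle replicate 1) and 499 (without propyzamide replicate 1), with 55 without vehicle replicate 2 and 78 without propyzamide replicate 3. With the replicate number as a block 639 genes passed, 324 higher and 315 lower. Propyzamide replicate 3 has no vehicle library of its number, so it does not enter the group difference in any result with the block. Libraries of the same number deviated together across genes, with r of 0.15 for number 1 and 0.14 for number 2. Deviations were taken from group means, which makes those of the 2 vehicle libraries exact opposites. The 2 values are therefore not independent, and they cannot show that the numbers pair the samples.

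The log2 ratio of the family sum, 2.35, was 1.24 in TPM and 0.94 with Apol10a left out of the sum, and lay between 1.99 and 2.71 with 1 library left out; it was 2.01 with the replicate block and 2.72 on protein-coding transcripts. The direction of Apol10a and of Apol7a held under all alternatives run, with 3.63 and 1.10 in TPM. Apol10b turned to -0.21 in TPM, -0.04 with the block and -1.04 without propyzamide replicate 2, and was 2.13 with background subtracted. Apol9a turned to 0.54 on protein-coding transcripts. Apol7b, under the floor in both groups, was not recomputed.

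For lipoprotein apolipoproteins 1 gene, Apoa1, was called with upper-quartile scaling, without rRNA-like and mitochondrial genes, with the replicate block, with no filter, by DESeq2 and by limma, and 0 to 1 with 1 library left out (1 without propyzamide replicate 1). For type I and III interferon response genes 1 was called with no filter (Ifi27l2a, higher), 2 by limma, and 0 to 1 with 1 library left out. For the neighbours 1 gene, Foxred2, was called with no filter and 1 by limma. The causes of these shifts were not tested. Depth limits Apol7b, Apol7c, Apol9b and Apol10b, for which no direction can be given.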
